A study of Arabidopsis thaliana with 12 samples.

Results

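The genes described here are defence response genes, not marked as transcription factors, that changed in roots of 3 transgenic Arabidopsis thaliana lines. They are all genes in any of the 3 deposited tables whose annotation carries the gene ontology term for defence response, with an empty transcription factor field, without the term for response to heat and without 19 loci named in the rule. The rule found 161 of the 2424 genes in the tables (6.64%). Of 198 genes with the defence term, 21 were left out as transcription factors, 3 for the heat term and 13 as named loci. The annotation and the named loci chose the genes, with earlier results of these data known. Each table holds only genes that the authors had called, so every member differed from Col in at least 1 table by the authors' own criterion. That criterion was an absolute log2 fold above 1 and a Q-value, an adjusted p-value, under 0.001.

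The study sequenced RNA from roots of 8-day-old seedlings grown in darkness on medium, with 3 libraries for each of 4 genotypes. Col is the wild type. LBD29-OE carries Pro35S:LBD29-6Gly and overexpresses LBD29, a LATERAL ORGAN BOUNDARIES DOMAIN transcription factor of lateral root formation. MYB2-OE carries Pro35S:MYB2 and overexpresses MYB2, a MYB transcription factor of abscisic acid and water stress responses, and MYB2-SRDX carries 35S::MYB2-SRDX, a fusion of MYB2 to the SRDX repression domain that the labels call dominant negative. The 35S promoter is active in most cell types, and the labels do not give the number of independent transformants behind a line. All 3 lines are compared with the same 3 Col libraries, so no overlap between comparisons is given as a result.

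Plants detect microbes with receptor kinases at the cell surface and with intracellular receptors of the nucleotide-binding leucine-rich repeat (NLR) class, which sense pathogen effectors. Both routes act through calcium, kinases, the hormones salicylic acid and ethylene, and the mobile signal N-hydroxypipecolic acid. They lead to chitinases, glucanases, defensins, protease inhibitors and specialised metabolites such as glucosinolates. Many of these products are also made in healthy roots, where they form part of a standing protection against soil microbes.

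Expression was given as FPKM (sequenced fragments scaled to transcript length and to the size of the library) in each library. LBD29-OE had 477 to 603 FPKM of LBD29, against 2.55 to 3.08 FPKM in Col. MYB2 stood at 0.48 to 1.01 FPKM in Col and at 375 to 636 FPKM in MYB2-OE and MYB2-SRDX libraries, where MYB2 reads include the fusion. In MYB2-OE replicate 2, however, LBD29 also stood at 109 FPKM, against 1.82 and 1.93 FPKM in the other MYB2-OE libraries. In LBD29-OE, 5 of 6 green tissue markers were listed, with summed levels of 98.4 to 129 FPKM in Col and of 11.4, 213 and 13.5 FPKM in replicates 1, 2 and 3. Of these 5, PORB was not highest in replicate 2. RBCS1A stood at 91.0 FPKM in replicate 2, within its Col range of 88.6 to 119.7 FPKM, and at 9.77 and 10.6 FPKM in replicates 1 and 3. CAB2, RBCS2B and RBCS3B were above every Col library in replicate 2. In MYB2-OE, 3 of the 6 were listed, at summed levels of 8.67 to 10.5 FPKM in Col and 10.8 to 14.2 FPKM in the line. Of these, LHCB2.1 was above Col in every MYB2-OE library, RBCS3B was below Col in every one, and RBCS2B was below Col in replicates 1 and 3. In MYB2-SRDX, 2 of the 6 were listed, at a sum of 5.16 to 6.80 FPKM in Col and 10.3, 0.57 and 0.73 FPKM in libraries 1, 2 and 3. The higher sum of library 1 came from RBCS2B, at 9.17 FPKM, while LHCB2.1 was below Col there, at 1.13 FPKM against 4.11 to 5.28 FPKM. All 3 seed storage markers were listed, at a sum of 0 to 0.05 FPKM in Col and 3.98, 0 and 0 FPKM in the line. None of 6 root markers was listed in a table, so the tissue label could not be checked against them. MYB2-SRDX library 1 and LBD29-OE replicate 2 stood apart among the members too, and the results that rest on them are given with and without them. The part of other RNA in the defence values of these libraries, and of MYB2-OE replicate 2, was not tested.

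In LBD29-OE, 73 of the 161 members were listed, 30 higher and 43 lower than Col. MYB2-OE had 70 members, 25 higher and 45 lower. MYB2-SRDX had 71 members, 51 higher and 20 lower. The share of higher entries among members was 41.1%, 35.7% and 71.8%, against 41.8%, 52.4% and 52.9% of all listed genes. A gene can be in more than 1 table, and the 161 genes gave 214 entries. RNA of whole roots was measured, so fewer cells of a type and less RNA per cell cannot be told apart.

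A second test was run on each table, limma on log2(FPKM + 1) with Benjamini-Hochberg adjustment over all genes of that table. A fold on that scale understates the change of genes with low FPKM, and the test starts from genes that the authors had already selected. Below, "rose" and "fell" are used for members with a limma adjusted p under 0.05, and "listed" for the authors' call alone. In LBD29-OE, 18 members rose and 39 fell, which is 24.7% and 53.4% of the 73 members, against 32.0% and 51.4% of all 802 genes in its table. In MYB2-OE, 24 rose and 40 fell, or 34.3% and 57.1% of 70, against 49.6% and 45.3% of 1271 genes. In MYB2-SRDX, 13 rose and 18 fell, or 18.3% and 25.4% of 71, against 24.2% and 37.9% of 1045 genes. Of all genes listed higher, 76.7% rose in LBD29-OE, 94.6% in MYB2-OE and 45.8% in MYB2-SRDX, and of all listed lower 88.2%, 95.2% and 80.5% fell, so the counts by role below start from these shares. The median limma difference of the members was -0.35 in LBD29-OE, where all listed genes had -0.40. It was -0.37 in MYB2-OE, against 0.23 for all genes, and 0.53 in MYB2-SRDX, against 0.23.

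**Figure D1:**
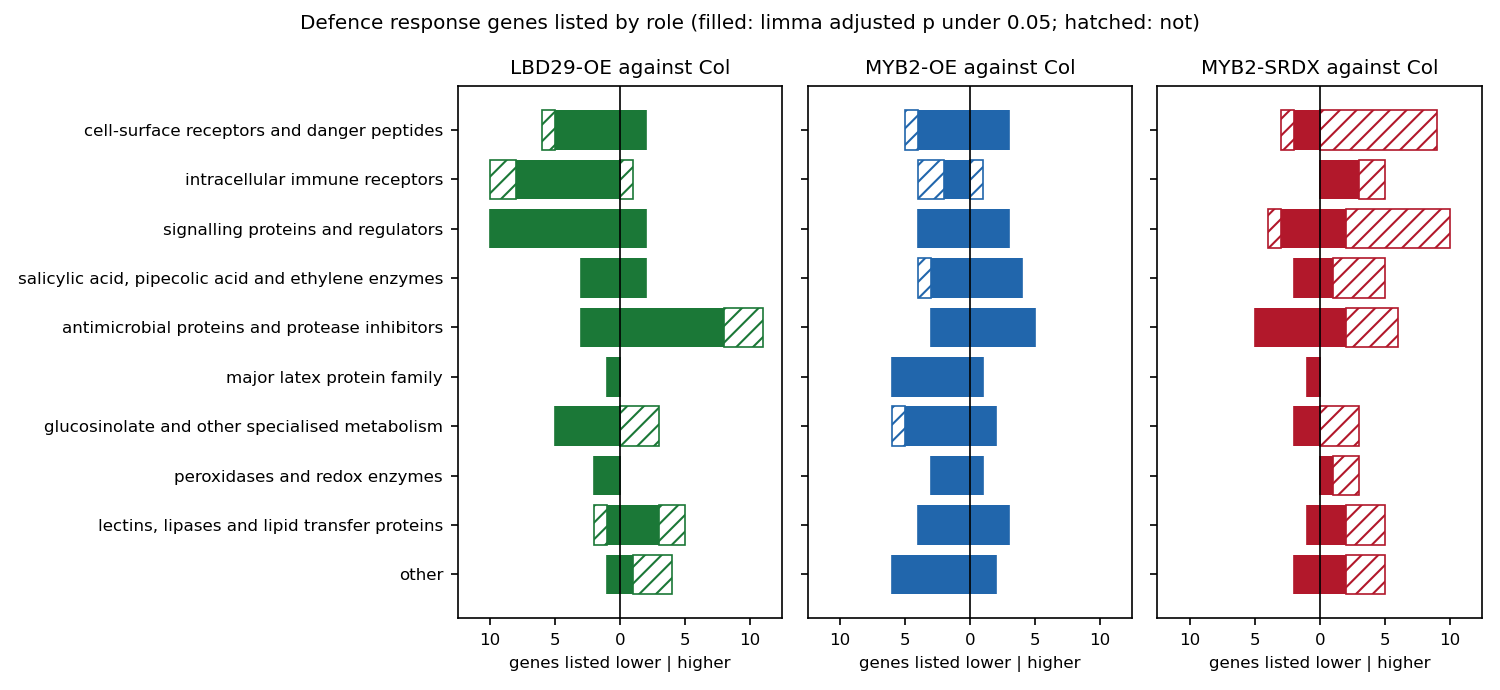
Number of defence response genes listed by the authors as lower (bars to the left) or higher (to the right) than Col in each line, by the role of the gene product. Filled bars are genes with a limma adjusted p under 0.05 and hatched bars are the remaining listed genes. In LBD29-OE 10 of 11 listed genes of the intracellular receptor role were lower (2 of them with the same values). In MYB2-OE 6 of 7 latex family genes were lower, and in MYB2-SRDX none of the 9 surface receptors and danger peptides listed higher passed limma.

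Cell-surface receptors and danger peptides were mostly at low FPKM. In LBD29-OE 5 of the 6 listed lower fell and both listed higher rose. The peptide precursor genes PROPEP2 and PROPEP3 make the Pep danger peptides, which damaged cells release and which surface receptors then detect. PROPEP3 (AT5G64905) had 11.6, 13.4 and 7.05 FPKM in Col and 3.52, 7.14 and 3.04 in LBD29-OE. Replicate 2 of LBD29-OE lay inside the range of Col and the other 2 libraries below it. The log2 difference was -1.10 ± 0.34 (SE), limma adjusted p = 0.0215. The log2 ratio on mean FPKM + 0.1 was -1.21 with all libraries and -1.67 without replicate 2. PROPEP2 had 6.34, 5.47 and 3.24 FPKM in Col and 1.73, 2.88 and 2.73 in LBD29-OE, without overlap, and fell (limma adjusted p = 0.0271). The leucine-rich repeat kinase gene AT1G51890 stood at 5.62, 5.74 and 6.39 FPKM in Col and 3.02, 2.72 and 2.3 in LBD29-OE, with every LBD29-OE library below every Col library. It fell by 0.91 ± 0.14 (SE) on the log2 scale.

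The cysteine-rich receptor-like kinase (CRK) genes encode surface kinases that often respond to pathogens and salicylic acid. CRK18 (AT4G23260) had 0.17, 0.26 and 0.11 FPKM in Col and 0.54, 0.94 and 1.08 in LBD29-OE, while MYB2-OE had 5.72, 4.5 and 5.24 FPKM. Both lines lay above Col in every library, with a log2 difference of 0.64 ± 0.14 (SE), limma adjusted p = 0.00654, in LBD29-OE and of 2.38 ± 0.17 (SE), limma adjusted p = 3.19e-05, in MYB2-OE. CRK5 also rose in LBD29-OE, and EMB1290, annotated as CRK17, rose in MYB2-OE from 0.08, 0.30 and 0.13 FPKM in Col to 1.65, 0.85 and 1.48 FPKM. EMB1290 overlaps AT4G23240 on the same strand, so reads may be split between them. By contrast, CRK4 fell in MYB2-OE, and EP1, annotated as CRK9, fell in both overexpression lines. These genes moved in either direction within MYB2-OE, all from levels under 1 FPKM in Col.

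In MYB2-SRDX 9 surface receptor genes were listed higher and none of them passed limma. The flagellin-induced receptor kinase gene FRK1, a standard reporter of pattern-triggered immunity, had 0.21, 0.09 and 0.17 FPKM in Col and 1.11, 0.35 and 0.35 in MYB2-SRDX. Every MYB2-SRDX library was above every Col library, with library 1 highest. WAK1, a wall-associated kinase that senses pectin fragments, was listed at 0 in all Col libraries and stood at 1, 0 and 0.05 FPKM in MYB2-SRDX. CRK31 had 0.09, 0.07 and 0.09 FPKM in Col and 1.23, 0.02 and 0.04 in MYB2-SRDX, and libraries 2 and 3 were not above Col. Without library 1, FRK1 was the only one of the 9 to pass limma, at a log2 difference of 0.22 ± 0.06 (SE) and limma adjusted p = 0.021. None of the 9 was then 2-fold above Col on mean FPKM + 0.1, a constant that lowers folds at such low levels. FRK1, at 0.35 FPKM in libraries 2 and 3, had a log2 ratio of 0.81 on that scale. The receptor kinase genes IOS1 and ARSK1 fell. IOS1, which acts with pattern receptors and is named for altered oomycete susceptibility, had 15.6, 16.3 and 18.4 FPKM in Col and 6.45, 7.89 and 10.1 in MYB2-SRDX. ARSK1, named as a root-specific kinase, had 11.5, 11.8 and 13.1 FPKM in Col and 3.87, 6.72 and 7.5 in MYB2-SRDX. For both genes the groups did not overlap, and both differences passed limma with and without library 1 (adjusted p with all libraries = 0.00742 for IOS1 and 0.0182 for ARSK1).

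The role of intracellular immune receptors also takes in the RPW8 homologues HR2, HR3 and HR4 and the TIR-domain gene TIR. Its counts are therefore not counts of NLR receptors alone. In this role LBD29-OE had 10 listed lower and 1 listed higher. Of the 10, 8 fell, or 7 of 9 with AT1G58807 and AT1G59124 counted once, since they have the same values. HR2, a homologue of the broad-spectrum mildew resistance protein RPW8, had 2.94, 2.96 and 2.96 FPKM in Col and 1.4, 1.3 and 0.90 in LBD29-OE, at a log2 difference of -0.85 ± 0.15 (SE), limma adjusted p = 0.00279. RPP13 and RPP8 give resistance to downy mildew. RPP13 had 0.95, 0.75 and 1.03 FPKM in Col and 0.29, 0.60 and 0.24 in LBD29-OE. RPP8 had 1.64, 1.68 and 2.21 FPKM in Col and 1.09, 1.09 and 0.57 in LBD29-OE. In neither gene did LBD29-OE overlap Col. The gene annotated TIR, which encodes a TIR-domain protein, had 0.47, 0.77 and 0.58 FPKM in Col and 0.05, 0.21 and 0.26 in LBD29-OE. AT1G58807 and AT1G59124 are annotated as NLR proteins of the coiled-coil class and were listed with the same FPKM in every library, so they count as 1 measurement that cannot be assigned to either gene. The higher entry, RLM3, had 0.13, 0.36 and 0.13 FPKM in LBD29-OE and did not pass limma.

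MYB2-OE had 4 genes of the intracellular receptor role listed lower and 1 higher, of which HR2 and TIR fell. MYB2-SRDX had 5 listed higher and none lower, of which HR3, HR4 and RPP4 rose. HR4 (AT3G50480), another RPW8 homologue, had 0.96, 1.65 and 1.22 FPKM in Col and 10, 7.72 and 7.05 in MYB2-SRDX. All 3 MYB2-SRDX libraries lay above every Col library, and the log2 difference was 2.02 ± 0.19 (SE), limma adjusted p = 0.00141. HR3 had 0.81, 0.64 and 0.76 FPKM in Col and 1, 2.65 and 2.46 in MYB2-SRDX, with libraries 2 and 3 above library 1. HR2, HR3 and HR4 lie side by side on chromosome 3. HR2 was listed as lower in LBD29-OE and MYB2-OE and was not in the MYB2-SRDX table, while HR3 and HR4 were listed for MYB2-SRDX only. In the authors' deposited table the log2 of LBD29-OE over Col was 0.40 for HR3 and 0.09 for HR4, both inside the authors' limit of 1.

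Signalling proteins and regulators fell in LBD29-OE in 10 of 10 members listed lower, against 88.2% of all genes listed lower, and both listed higher rose. PUB23 (AT2G35930), a U-box ubiquitin ligase that dampens pattern-triggered immunity, had 42.2, 43.8 and 39.8 FPKM in Col and 15.9, 26.7 and 14.5 in LBD29-OE. HIR2, a membrane protein of the hypersensitive induced reaction family, had 225, 218 and 281 FPKM in Col and 126, 129 and 86.5 in LBD29-OE. YLS9, also called NHL10, belongs to the family of the membrane protein NDR1 and had 16.8, 13.8 and 20.8 FPKM in Col and 5.63, 8.13 and 7.53 in LBD29-OE. In all 3 genes every LBD29-OE library lay below every Col library, with log2 differences of -1.15 ± 0.23 (SE), limma adjusted p = 0.005, for PUB23, -1.09 ± 0.20 (SE), limma adjusted p = 0.00339, for HIR2 and -1.16 ± 0.20 (SE), limma adjusted p = 0.00293, for YLS9. NDR1 itself, which several coiled-coil NLR proteins need, went from 3.93, 3.64 and 4.26 FPKM in Col to 1.88, 1.95 and 1.75 FPKM and also fell (limma adjusted p = 0.00251). MLO6, one of the membrane proteins that powdery mildew needs to enter cells, fell from 20.1, 18.9 and 21.6 FPKM to 8.57, 9.57 and 12 FPKM. PUB23 overlaps the member AT2G35935 on the opposite strand, and both fell. Whether reads were counted by strand is not given in the sources used here, so these 2 genes cannot be told apart.

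HSP90.1, a chaperone that helps NLR proteins fold, moved in opposite directions in 2 lines. It had 50.6, 31.5 and 24 FPKM in Col, 91.4, 102 and 84.3 in LBD29-OE and 13.2, 14.4 and 11.1 FPKM in MYB2-SRDX. The Col libraries ranged widely, yet LBD29-OE lay above and MYB2-SRDX below all of them, with log2 differences of 1.43 ± 0.27 (SE), limma adjusted p = 0.00399, and -1.33 ± 0.29 (SE), limma adjusted p = 0.0115. CIPK25, a kinase of the calcineurin B-like calcium pathway, fell in both these lines, from 4.86, 5.88 and 7.6 FPKM in Col to 2.79, 2.92 and 2.31 FPKM in LBD29-OE and 1.19, 1.83 and 1.38 FPKM in MYB2-SRDX. The RING ubiquitin ligase gene RING1 fell in both as well.

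In MYB2-OE 3 regulators rose and 4 fell. HSPRO2 (AT2G40000), named as an orthologue of a sugar beet nematode resistance gene and known for basal resistance to Pseudomonas, had 47.8, 46.3 and 38.9 FPKM in Col and 125, 118 and 112 in MYB2-OE. AT3G55840, annotated as another Hs1pro-1 protein, had 1.72, 1.83 and 2.13 FPKM in Col and 6.2, 6.96 and 8.09 in MYB2-OE. Both rose without overlap (limma adjusted p = 0.000443 and 0.000461). BOP2, a BTB-ankyrin co-regulator of the NPR1 family, fell from 10.8, 11.6 and 11.9 FPKM to 3.42, 5.48 and 3.24 FPKM. It overlaps AT2G41375 on the opposite strand. MLO10 fell and MLO7 rose, from 35.2, 42.6 and 48.8 FPKM to 15.7, 24.9 and 16.9 FPKM and from 3.33, 4.45 and 5.76 FPKM to 9.22, 11.5 and 11.7 FPKM.

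In MYB2-SRDX 10 regulators were listed higher, of which NHL12 and MKK7 rose, and 4 lower, of which 3 fell. MKK7, a MAP kinase kinase linked to systemic resistance, had 0.09, 0.13 and 0.22 FPKM in Col and 0.78, 0.39 and 0.57 in MYB2-SRDX. NHL12 had 1.34, 1.66 and 1.74 FPKM in Col and 3.41, 3.24 and 4.17 in MYB2-SRDX. CNI1, also named ATL31, is a membrane RING ubiquitin ligase of the carbon and nitrogen response and had 10.7, 11 and 9.58 FPKM in Col and 57.9, 13.2 and 13 in MYB2-SRDX. Its library 1 stood far above the other libraries, and its difference passed limma without library 1 only (log2 difference 0.31 ± 0.10 (SE), limma adjusted p = 0.0356, against 0.171 with all 3). NHL3, a plasma membrane protein of the NDR1-like family, had 92.9, 91.4 and 86.1 FPKM in Col and 328, 133 and 124 in MYB2-SRDX, with the same outcome (limma adjusted p = 0.00547 without library 1 and 0.0723 with it).

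Genes of salicylic acid, N-hydroxypipecolic acid and ethylene metabolism were listed in either direction in every line. In MYB2-OE 4 were listed higher and 4 lower, in MYB2-SRDX 5 higher and 2 lower, and in LBD29-OE 2 higher and 3 lower. AT5G52810 encodes a Rossmann-fold protein with an ornithine cyclodeaminase/mu-crystallin domain. It stood at 13.4, 13.6 and 12.4 FPKM in Col, at 81.8, 47.4 and 87.9 FPKM in MYB2-OE and at 3.28, 4.12 and 3.23 FPKM in MYB2-SRDX. The 3 genotypes did not overlap. The log2 difference was 2.33 ± 0.25 (SE), limma adjusted p = 0.000217, in MYB2-OE, and -1.64 ± 0.14 (SE), limma adjusted p = 0.000934, in MYB2-SRDX, and in the authors' deposited table its log2 in LBD29-OE was -0.38. AT5G52810 overlaps AT5G52800 on the same strand, so reads may be split between them.

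ICS2, which makes isochorismate, the precursor of salicylic acid, went the other way. It stood at 11.2, 8.71 and 8.45 FPKM in Col, 1.46, 3.52 and 0.73 FPKM in MYB2-OE and 44.6, 19.3 and 20.1 FPKM in MYB2-SRDX, again without overlap. Its log2 difference was -1.95 ± 0.34 (SE), limma adjusted p = 0.00139, in MYB2-OE, and 1.38 ± 0.35 (SE), limma adjusted p = 0.0181, in MYB2-SRDX. Without library 1 of MYB2-SRDX it was 1.00 ± 0.14 (SE) (limma adjusted p = 0.00308). AT4G10500, annotated as DLO1, an oxygenase that hydroxylates salicylic acid, had 2.71, 3.55 and 2.64 FPKM in Col and 16.9, 11 and 18.7 in MYB2-OE, and rose. AT4G10490, annotated as DLO2, rose in LBD29-OE from 0.19, 0.08 and 0.04 FPKM to 0.49, 0.53 and 0.56 FPKM. MES1, which converts methyl salicylate to salicylic acid, fell in MYB2-SRDX from 17.9, 14.2 and 14.5 FPKM to 9.41, 4.85 and 5.52 FPKM (limma adjusted p = 0.0117).

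FMO1 and ALD1 make N-hydroxypipecolic acid from lysine in 2 of its steps. AT5G52810, also named SARD4 and grouped here with these enzymes, was listed the opposite way to FMO1, higher in MYB2-OE and lower in MYB2-SRDX. FMO1 (AT1G19250) had 1.02, 1.37 and 0.78 FPKM in Col, 0.56, 0.49 and 0.39 in LBD29-OE, 0.37, 0.39 and 0.57 FPKM in MYB2-OE and 13.5, 2.31 and 3.16 FPKM in MYB2-SRDX. It fell in both overexpression lines (limma adjusted p = 0.0211 and 0.00973). In MYB2-SRDX all libraries were above Col, and the limma adjusted p was 0.059 with all libraries and 0.0118 without library 1, at a log2 difference of 0.86 ± 0.19 (SE). ALD1 fell in LBD29-OE, from 1.15, 0.63 and 0.93 FPKM to 0.45, 0.27 and 0.18 FPKM, and was listed higher in MYB2-SRDX at 3.82, 1.26 and 1.42 FPKM without passing limma. CBP60G, a calmodulin-binding protein that drives salicylic acid synthesis, had 0.24, 0.70 and 0.62 FPKM in Col and 52.8, 0.68 and 0.73 FPKM in MYB2-SRDX. PBS3, which couples isochorismate to glutamate, had 0, 0.16 and 0.06 FPKM in Col and 13.8, 0.25 and 0.16 in MYB2-SRDX. In both genes most of the higher mean lay in library 1, and neither passed limma with or without it. CBP60G fell in LBD29-OE, to 0.13, 0.09 and 0.02 FPKM (limma adjusted p = 0.0173).

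The ethylene-forming oxidases did not move as one. EFE, also named ACO4, rose in MYB2-OE from 28.3, 30.1 and 34.1 FPKM to 68.2, 54.9 and 67 FPKM, and ACO1 fell there from 6.84, 8.91 and 11.6 FPKM to 4.02, 4.58 and 4.47 FPKM. AT1G12010, annotated as an oxygenase of the 2-oxoglutarate and iron superfamily, rose in both overexpression lines. It had 17.3, 16.7 and 15.4 FPKM in Col, 42.8, 40.6 and 28.9 in LBD29-OE and 36.1, 39.9 and 52.8 FPKM in MYB2-OE, with log2 differences of 1.12 ± 0.18 (SE), limma adjusted p = 0.00205, and 1.32 ± 0.19 (SE), limma adjusted p = 0.000774.

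Antimicrobial proteins and protease inhibitors in LBD29-OE had 11 listed higher, of which 8 rose, and 3 listed lower, all of which fell. The chitinase family gene AT2G43590 had 104, 91.4 and 93.1 FPKM in Col and 380.2, 432 and 694 in LBD29-OE, at a log2 difference of 2.32 ± 0.23 (SE), limma adjusted p = 0.000603. PR-1-LIKE, a relative of the pathogenesis-related marker PR1, had 7.43, 6.88 and 4.97 FPKM in Col and 32.2, 41 and 52.3 in LBD29-OE, at 2.52 ± 0.22 (SE), limma adjusted p = 0.000437. AT5G47550, annotated in the cystatin family of cysteine protease inhibitors, had 8.36, 5.99 and 4.54 FPKM in Col and 18.9, 27.1 and 52.1 in LBD29-OE. None of these groups overlapped, and replicate 3 was highest in all 3 genes. The beta-1,3-glucanase gene BETAG4 rose from 0, 0 and 0.03 FPKM to 0.96, 0.59 and 1.14 FPKM, and the defensin-like genes SCRL26, LCR85, AT3G63360 and AT1G47317 rose from levels under 2 FPKM. In contrast AT1G13609, AT3G05727 and AT3G05730 were listed as higher on replicate 2. AT3G05727 was at 0 in all Col libraries and at 0, 9.18 and 0 FPKM in LBD29-OE, and none of the 3 passed limma.

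AT4G16260, a glycosyl hydrolase annotated as a putative beta-1,3-endoglucanase, was a member in all 3 tables and one of the most abundant. It stood at 185, 184 and 215 FPKM in Col, 84.8, 104 and 87.1 in LBD29-OE, 684, 426 and 868 FPKM in MYB2-OE and 99.2, 67.7 and 76.3 FPKM in MYB2-SRDX. It was above Col in every MYB2-OE library and below Col in every library of the other lines. The log2 difference was -1.07 ± 0.13 (SE), limma adjusted p = 0.00102, in LBD29-OE, 1.70 ± 0.29 (SE), limma adjusted p = 0.00126, in MYB2-OE, and -1.27 ± 0.18 (SE), limma adjusted p = 0.00317, in MYB2-SRDX. Enzymes of this kind cut fungal and callose glucans.

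In MYB2-OE all 5 members of the group listed higher rose and all 3 listed lower fell. PR4, a pathogenesis-related protein with a chitin-binding domain, had 168, 172 and 156 FPKM in Col and 361, 250.5 and 462 in MYB2-OE. UPI, an unusual serine protease inhibitor, had 79, 102 and 126 FPKM in Col and 259, 216 and 275 in MYB2-OE. The neighbouring gene AT5G43570, a potato inhibitor I-type protease inhibitor, had 0.72, 1.8 and 1.34 FPKM in Col and 3.26, 4.33 and 5.26 in MYB2-OE and only 0.36, 0.63 and 0.36 FPKM in MYB2-SRDX, so it rose in one MYB2 line and fell in the other (limma adjusted p = 0.00241 and 0.044). The fall in MYB2-SRDX did not pass limma without library 1 (adjusted p = 0.0716). The defensin gene LCR69, annotated as PDF2.2, fell in MYB2-OE. It had 248, 229 and 266 FPKM in Col and 32, 93.4 and 41.5 in MYB2-OE, a log2 difference of -2.28 ± 0.36 (SE), limma adjusted p = 0.000984.

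On chromosome 2 a run of 7 members holds trypsin inhibitor or knottin-like genes (TI1, AT2G43530, AT2G43550) followed by chitinase family genes (CHI, AT2G43580, AT2G43590, AT2G43620). The direction of these neighbours differed by line. Those listed in MYB2-SRDX were all listed higher, and those listed in MYB2-OE lower. In LBD29-OE, TI1 was listed lower and AT2G43590 higher. AT2G43620 was listed for MYB2-SRDX only and did not pass limma with or without library 1 (adjusted p = 0.272 and 0.657). AT2G43590 rose in LBD29-OE and stood at 1473, 275 and 243 FPKM in MYB2-SRDX, above Col in every library. Its log2 difference there was 2.25 ± 0.70 (SE), limma adjusted p = 0.0344, and 1.42 ± 0.11 (SE) without library 1 (limma adjusted p = 0.000599). AT2G43580 had 0.28, 0.27 and 0.27 FPKM in Col and 4.57, 2.42 and 1.47 in MYB2-SRDX and rose as well. CHI had 13.8, 14.6 and 15.2 FPKM in Col and 133, 21.9 and 18.8 in MYB2-SRDX, and TI1 had 0.71, 1.02 and 0.38 FPKM in Col and 14.6, 0.25 and 0.58 in MYB2-SRDX. Libraries 2 and 3 of MYB2-SRDX lay slightly above Col for CHI, which passed limma without library 1 only (adjusted p = 0.0133), and within or below the Col range for TI1. TI1 fell in LBD29-OE, while AT2G43530 and AT2G43550 fell in MYB2-OE, AT2G43550 from 22.7, 25.6 and 29.5 FPKM to 10.3, 13.9 and 8.95 FPKM.

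The major latex protein family held the most abundant members. These small proteins have a hydrophobic pocket and belong to the Bet v 1 superfamily. In MYB2-OE 6 of 7 fell. MLP34 (AT1G70850) had 2875, 2665 and 3306 FPKM in Col and 757, 1377 and 678 in MYB2-OE, at a log2 difference of -1.72 ± 0.34 (SE), limma adjusted p = 0.00211. MLP328 had 1647, 1462 and 1686 FPKM in Col and 433, 660.1 and 348 in MYB2-OE, at -1.78 ± 0.29 (SE), limma adjusted p = 0.00111. AT4G23670 had 958, 984 and 891 FPKM in Col and 186, 399.7 and 134 in MYB2-OE, at -2.13 ± 0.38 (SE), limma adjusted p = 0.00154. Replicate 2 was the nearest to Col in each, and still below every Col library. MLP43, AT3G26460 and AT4G14060 fell in the same way, the last from 33.7, 32.2 and 36.2 FPKM to 3.67, 9.87 and 3.05 FPKM. The exception was AT1G23120, which stood at 11.7, 13.2 and 13.7 FPKM in Col, 35, 28 and 37.9 FPKM in MYB2-OE and 2.86, 3.8 and 3.35 FPKM in MYB2-SRDX. It rose in MYB2-OE and fell in MYB2-SRDX (limma adjusted p = 0.00068 and 0.00104). In LBD29-OE AT1G70880, which lies between MLP34 and MLP43 on chromosome 1, fell from 20.3, 26.9 and 37.4 FPKM to 5.65, 5.67 and 4.07 FPKM.

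**Figure D2:**
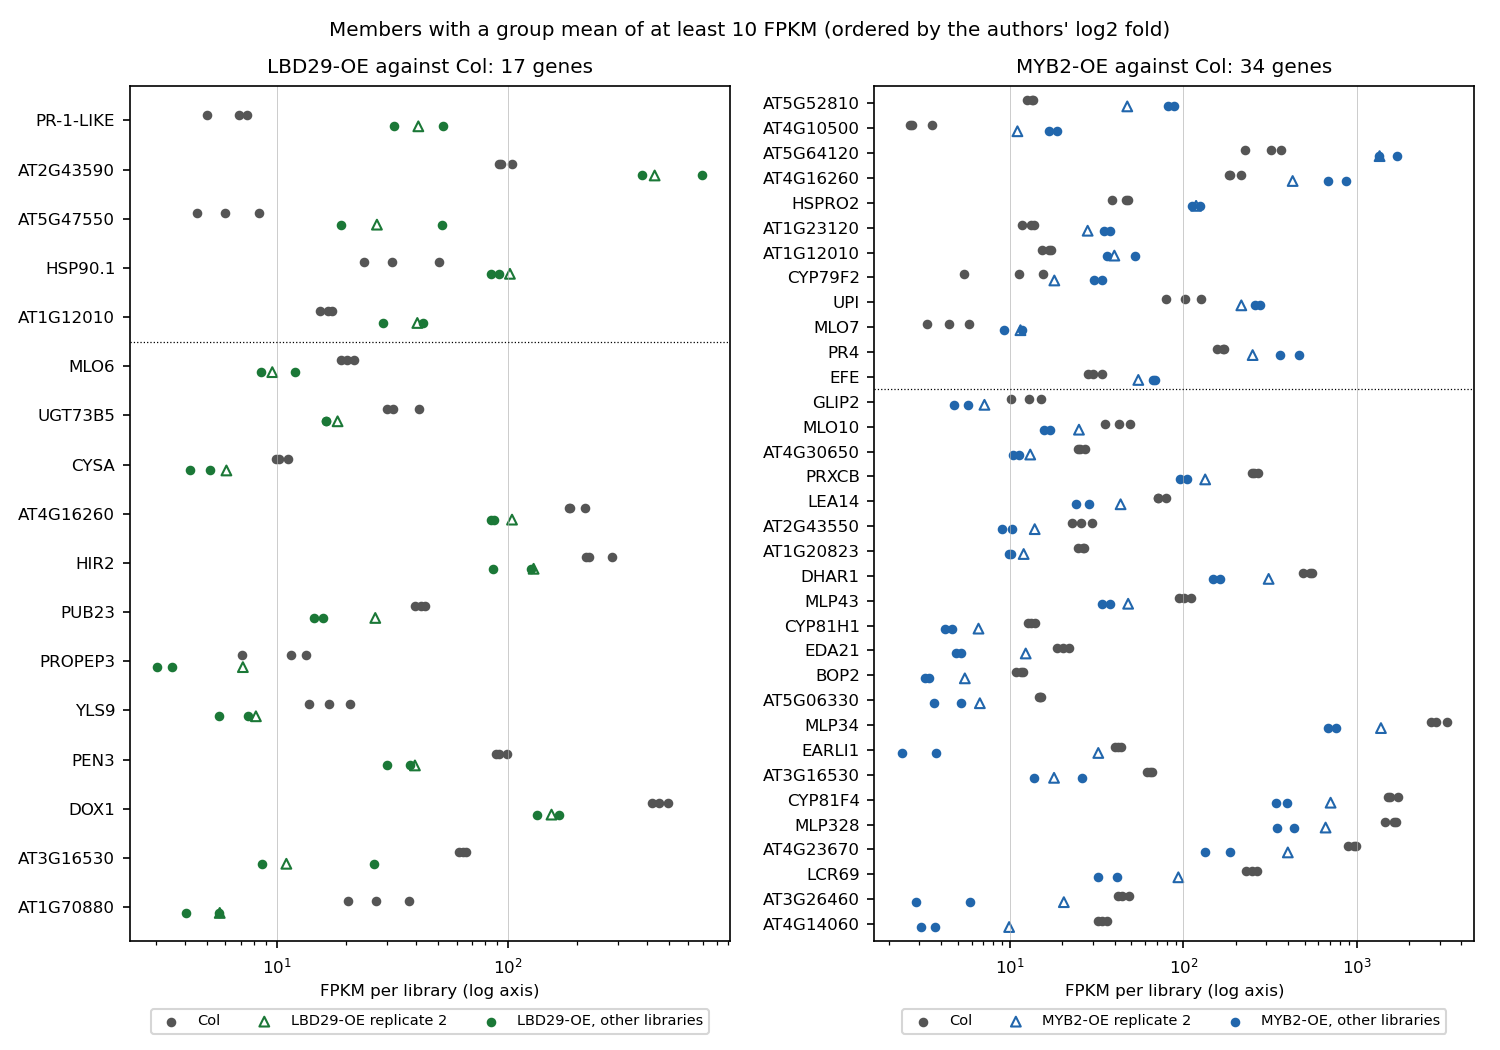
FPKM in each library (log axis) of the members with a group mean of at least 10 FPKM, 17 in LBD29-OE (left) and 34 in MYB2-OE (right), ordered by the authors' log2 fold, with the genes listed lower below the dotted line. Grey points are Col, open triangles replicate 2 of the line and filled points its other libraries. In MYB2-OE the triangles lie nearest to Col in most genes, and in LBD29-OE only PROPEP3 overlaps Col.

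Replicate 2 of MYB2-OE was the library nearest to Col in 15 of the 25 members listed higher and in 34 of the 45 listed lower. Among all genes of the table it was nearest in 477 of 666 and 460 of 605. It is also the library with 109 FPKM of LBD29 and the lowest MYB2 level of that line, 375 FPKM. Without it, 23 of the 25 higher members and 41 of the 45 lower members were at least 2-fold away from Col on FPKM + 0.1, against 24 and 38 with all libraries. Over all genes of the table these counts were 610 of 666 and 570 of 605 without it, against 600 and 547 with all libraries.

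Of the members of specialised metabolism that passed limma, 5 of 5 fell in LBD29-OE, 5 of 7 in MYB2-OE and 2 of 2 in MYB2-SRDX. Among all genes that passed, 61.6%, 47.8% and 61.0% fell. Without library 1 of MYB2-SRDX, 2 fell and 1 rose. In MYB2-OE, CYP81F4, a cytochrome P450 that modifies indole glucosinolates, had 1727, 1553 and 1520.1 FPKM in Col and 398, 705 and 342 in MYB2-OE, at a log2 difference of -1.80 ± 0.31 (SE), limma adjusted p = 0.00139. CYP79F2, which acts early in the synthesis of aliphatic glucosinolates, rose there from 15.4, 11.2 and 5.43 FPKM to 34.1, 18 and 30.6 FPKM. AT1G66540, a cytochrome P450, had 1.8, 1.93 and 1.83 FPKM in Col, 11.1, 6.87 and 10.2 FPKM in MYB2-OE and 0.23, 0.57 and 0.47 FPKM in MYB2-SRDX, so it rose in one line and fell in the other (limma adjusted p = 0.000332 and 0.00334). TSA1 is known from endoplasmic reticulum bodies, which store beta-glucosidases. It fell in MYB2-OE from 1.99, 1.97 and 1.6 FPKM to 0.16, 0.75 and 0.22 FPKM and stood at 2.1, 5.77 and 6.99 FPKM in MYB2-SRDX. There library 1 was the one nearest to Col, and the gene passed limma only without it (adjusted p = 0.00133).

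In LBD29-OE all 5 members of this group listed lower fell. PEN3, a transporter that exports defence metabolites at sites of fungal entry, had 91.4, 89 and 98.8 FPKM in Col and 37.5, 39.6 and 30.1 in LBD29-OE, at -1.36 ± 0.14 (SE), limma adjusted p = 0.000658. CYP81F2, which makes the indole glucosinolate used in defence against fungi, had 2.18, 4.14 and 4.25 FPKM in Col and 0.74, 0.61 and 0.85 in LBD29-OE, at -1.35 ± 0.22 (SE), limma adjusted p = 0.00256. PXMT1, a methyltransferase gene, fell from 1.81, 1.89 and 2.36 FPKM to 0.27, 0.51 and 0.17 FPKM. The myrosinase genes TGG1 and TGG2, whose enzymes break glucosinolates down, were listed higher in LBD29-OE on replicate 2, with 0, 18.7 and 0 FPKM for TGG1, and did not pass limma.

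CYP81F2 and PXMT1 were also among the genes in which MYB2-SRDX library 1 was farthest from the rest. CYP81F2 stood at 99, 4.83 and 5.35 FPKM and PXMT1 at 70.8, 2.13 and 3.61 FPKM in MYB2-SRDX. Libraries 2 and 3 were within 2-fold of the highest Col library for both genes, and neither passed limma (adjusted p = 0.197 and 0.228).

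Peroxidases and redox enzymes included some highly expressed genes. AT5G64120, annotated as the cell wall peroxidase PRX71, had 225, 318 and 365 FPKM in Col and 1339, 1352 and 1696 in MYB2-OE, at a log2 difference of 2.29 ± 0.27 (SE), limma adjusted p = 0.000309. DHAR1, which regenerates ascorbate, fell in MYB2-OE from 552, 537 and 487 FPKM to 163, 309.8 and 148 FPKM. PRXCB, annotated as peroxidase 34 and known for the oxidative burst, had 255, 270.0 and 248 FPKM in Col, 95.5, 133 and 105 FPKM in MYB2-OE and 605, 473 and 470.3 FPKM in MYB2-SRDX. It fell in the former and rose in the latter, without overlap (limma adjusted p = 0.00114 and 0.00387). In LBD29-OE, DOX1, an alpha-dioxygenase of fatty acids that limits cell death, had 419, 451 and 494 FPKM in Col and 134, 154 and 166 in LBD29-OE, at -1.58 ± 0.13 (SE), limma adjusted p = 0.00034. The peroxidase AT5G39580 fell in LBD29-OE and had 9.46, 5.21 and 4.51 FPKM in Col and 110.2, 4.28 and 4.03 in MYB2-SRDX, where libraries 2 and 3 lay below Col.

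Lectins and lipid proteins included AT3G16530, a legume lectin family gene listed in all 3 tables. It stood at 61.4, 64 and 66 FPKM in Col, 8.64, 11 and 26.4 in LBD29-OE, 26, 17.9 and 13.8 FPKM in MYB2-OE and 310.4, 158 and 137 FPKM in MYB2-SRDX. No line overlapped Col. The log2 difference was -2.14 ± 0.37 (SE), limma adjusted p = 0.00304, in LBD29-OE, -1.72 ± 0.24 (SE), limma adjusted p = 0.000605, in MYB2-OE and 1.55 ± 0.32 (SE), limma adjusted p = 0.00996, in MYB2-SRDX. EARLI1, a lipid transfer protein-like gene of the AZI1 family, fell in MYB2-OE from 42.1, 43.7 and 40.3 FPKM to 2.37, 32.2 and 3.72 FPKM, with replicate 2 close to Col. In MYB2-SRDX it had 49, 106 and 144 FPKM, with library 1 close to Col, and passed limma only without that library (adjusted p = 0.0012). A second legume lectin gene, AT3G15356, rose in MYB2-SRDX from 29.8, 28.1 and 31.1 FPKM to 79.2, 81.6 and 73.5 FPKM, evenly across the libraries. AT5G23840, which encodes a protein with an MD-2-related lipid recognition domain, fell there from 80.7, 75.8 and 76.9 FPKM to 18.6, 10.8 and 10.5 FPKM, at a log2 difference of -2.51 ± 0.23 (SE), limma adjusted p = 0.00133. The patatin-like lipase PLA2A had 0.67, 1.32 and 1.63 FPKM in Col and 26.1, 0.49 and 0.81 in MYB2-SRDX, so only library 1 was above Col.

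Members of no fixed role included SHM1, a mitochondrial serine hydroxymethyltransferase of photorespiration. It fell in MYB2-SRDX from 35.6, 40.1 and 36.7 FPKM to 16.6, 15.7 and 15.3 FPKM (limma adjusted p = 0.00141). MEE14 and AT4G30650, a low temperature and salt responsive family gene, rose in MYB2-SRDX. AT4G30650 had 25.2, 24.8 and 27.2 FPKM in Col and 50.2, 60.5 and 75.7 FPKM there, and fell in MYB2-OE to 11.2, 13.1 and 10.4 FPKM. CA1, a carbonic anhydrase best known from leaves, was listed in all 3 tables. Its FPKM was 0.72, 0.30 and 0.30 in Col, 0.04, 15.8 and 0.37 in LBD29-OE, 0.19, 0.10 and 0.15 in MYB2-OE and 3.45, 0.11 and 0.26 in MYB2-SRDX. Its LBD29-OE entry rested on replicate 2 and its MYB2-SRDX entry on library 1, the libraries with the highest summed level of the listed green tissue markers in these lines. Neither passed limma, and without those libraries CA1 was below Col. CA2 had the same pattern in LBD29-OE, with 0.09, 8.94 and 0.07 FPKM.

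The members listed in opposite directions in the MYB2 lines are plotted together. The other members listed in both lines were RLP40, higher in both, and AT4G02420, lower in both. AT5G52810, AT1G66540, AT4G16260, AT5G43570 and AT1G23120 rose in MYB2-OE and fell in MYB2-SRDX, where AT5G43570 did not pass limma without library 1. AT3G16530, ICS2, PRXCB and AT4G30650 fell in MYB2-OE and rose in MYB2-SRDX, and the remaining genes in the plot passed limma in at most 1 of these lines. In LBD29-OE the genes of the former set had authors' log2 values of -0.38, 0.04, -1.08, -0.39 and, for AT1G23120, 0.19, in the deposited tables. The lines share the Col libraries, so these comparisons are not independent, and the plotted genes were chosen for their opposite listing. The opposite directions are given side by side with no test between the lines.

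**Figure D3:**
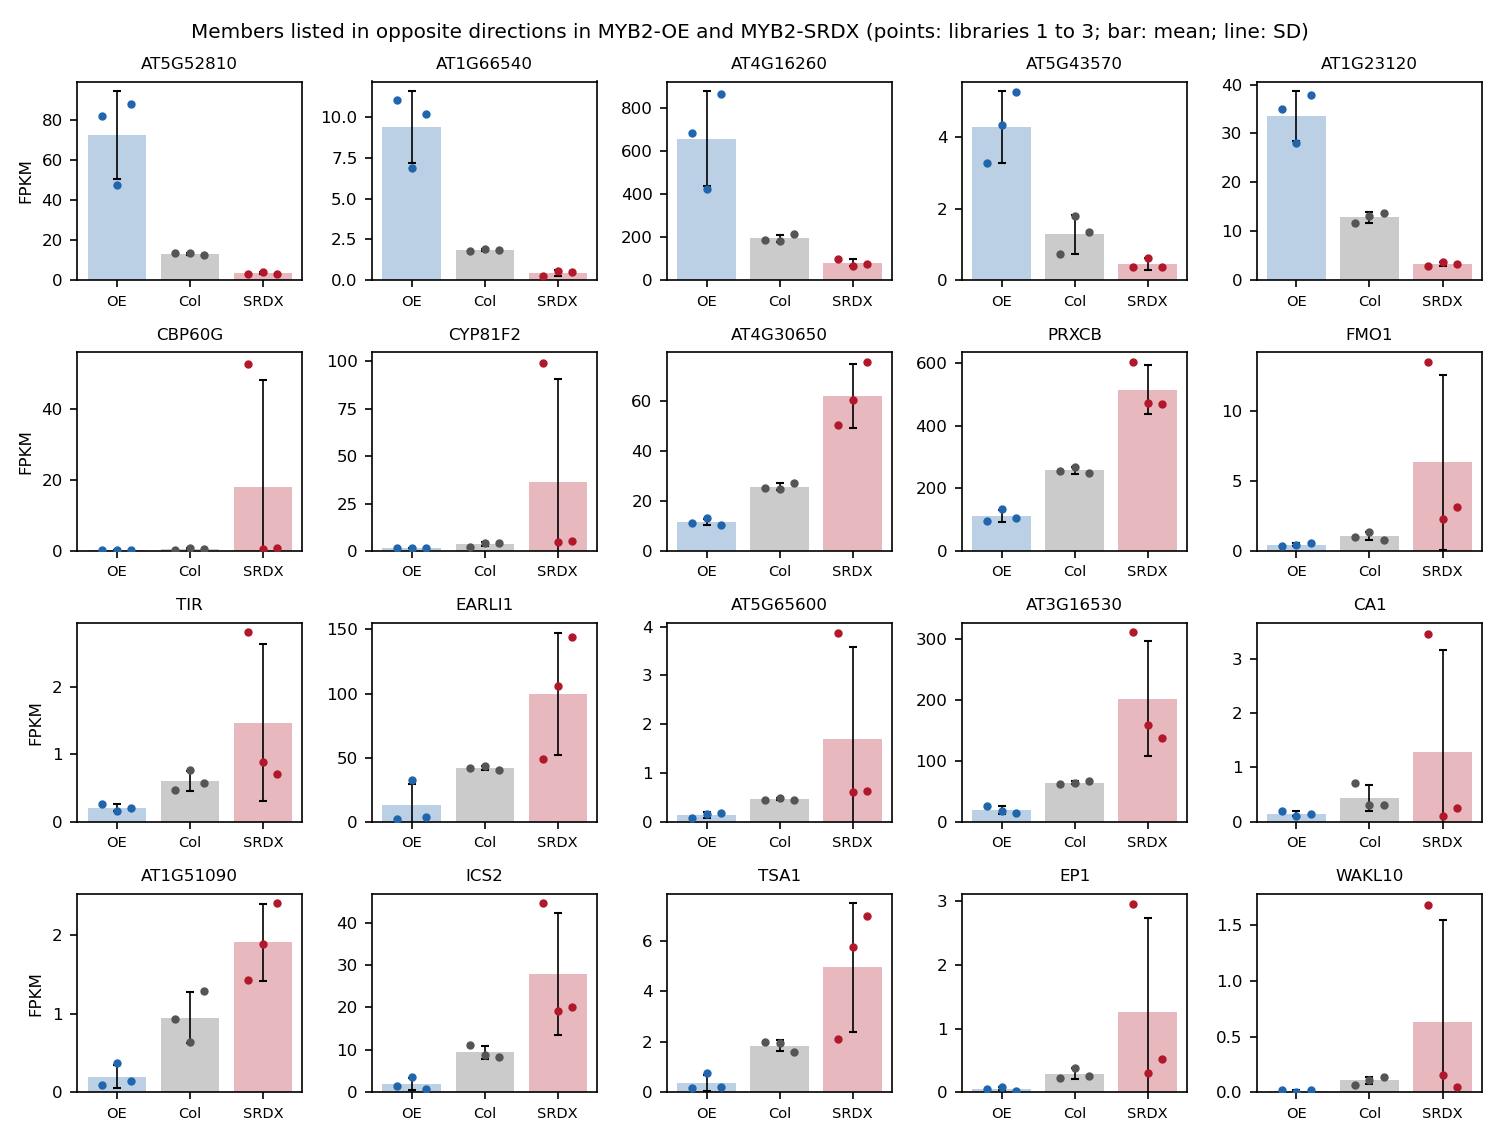
FPKM of the members listed in opposite directions in MYB2-OE (OE) and MYB2-SRDX (SRDX), with Col between them. Points are libraries 1 to 3 from left to right, bars the mean and lines the SD (n = 3). In the 5 genes of the top row the libraries of the 3 genotypes are separate, while in CBP60G, CYP81F2, CA1, EP1, AT5G65600 and WAKL10 library 1 of MYB2-SRDX lies far above its other libraries.

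Library 1 of MYB2-SRDX was the farthest from Col in 38 of the 51 members listed higher, against 344 of 553 of all genes listed higher. With all libraries, 47 of the 51 were at least 2-fold above Col on mean FPKM + 0.1. Without library 1, 19 were (37.3%), against 53.0% of all genes listed higher, and 11 of the 51 were then below Col. The members listed lower did not depend on it in this way, with 18 of 20 at least 2-fold below Col both with and without library 1, against 85.4% of all listed lower without it. Without library 1, 24 members rose by limma, against 33.0% of all 1045 genes, and 19 fell, against 41.1%. All 13 that rose with every library were among the 24. The other 11 were FMO1, SBT3.3, AT1G51090, TSA1, FRK1, CHI, SIB1, EARLI1, AT4G13190, NHL3 and CNI1.

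Of the 19 members, 17 were 2-fold above Col both with and without library 1, against 273 of the 553 genes listed higher, and RPP4 and AT1G51090 reached 2-fold only without it. Among the 17 were HR4, AT2G43580, AT2G43590, AT3G16530, AT3G15356, FMO1 and ICS2. Those under 2-fold without library 1 include CBP60G, PBS3, CYP81F2, PXMT1, PLA2A, WAK1 and AT5G39580. By role, 0 of 9 surface receptors, 2 of 5 intracellular receptors, 4 of 10 regulators, 3 of 6 antimicrobial genes and 0 of 3 peroxidases and redox enzymes kept a 2-fold rise.

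**Figure D4:**
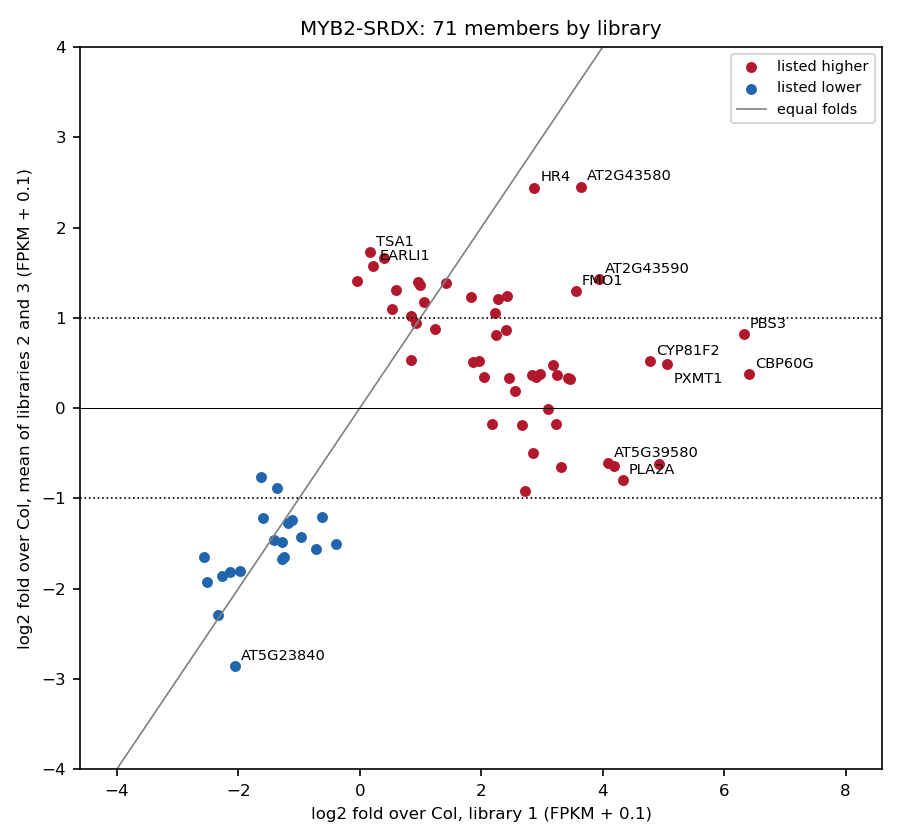
Log2 fold over the Col mean (FPKM + 0.1) of the 71 members in the MYB2-SRDX table, in library 1 (horizontal axis) and in the mean of libraries 2 and 3 (vertical axis). Red points are members listed higher, blue points members listed lower, the grey line marks equal folds and the dotted lines 2-fold. Most blue points lie near the grey line, while 11 red points lie below 0 on the vertical axis.

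**Figure D5:**
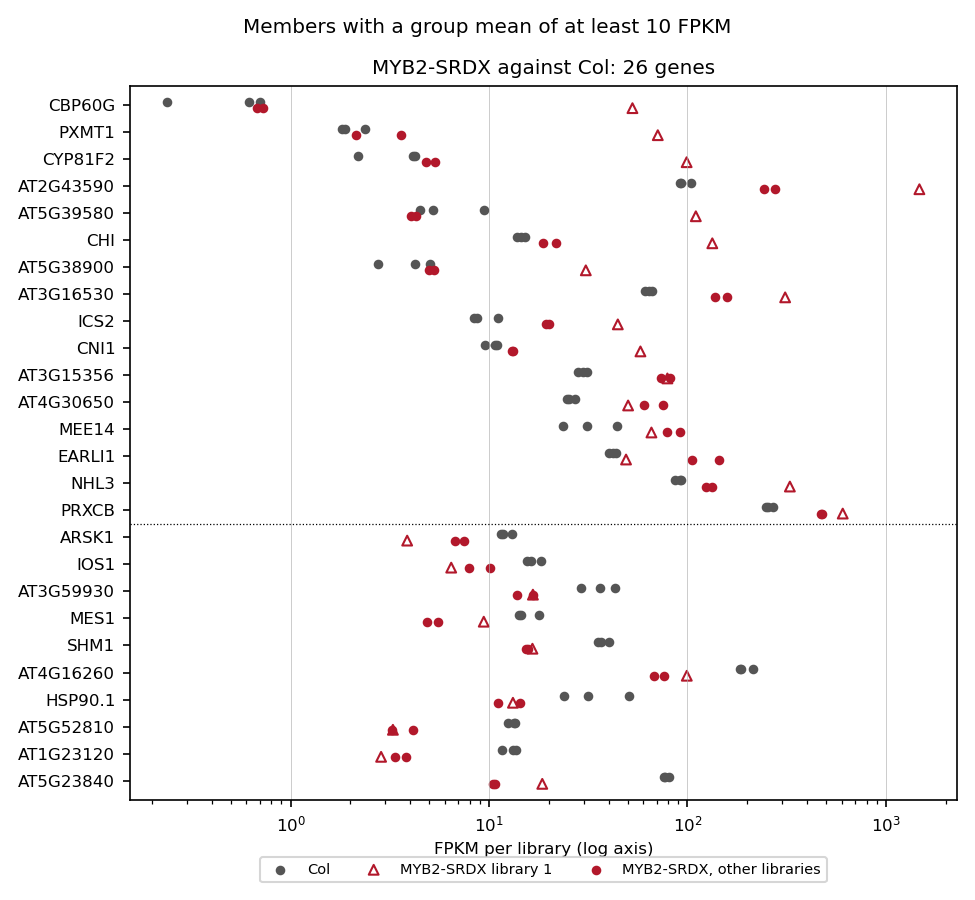
FPKM in each library (log axis) of the 26 members with a group mean of at least 10 FPKM in the MYB2-SRDX table, ordered by the authors' log2 fold, with those listed lower below the dotted line. Grey points are Col, open triangles library 1 and filled points libraries 2 and 3. Library 1 lies far to the right for CBP60G, PXMT1, CYP81F2 and AT5G39580 and among or beside the other libraries for the genes listed lower.

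In LBD29-OE, leaving out replicate 2 reduced the members at least 2-fold above Col from 28 to 18 of 30, and the same count over all genes listed higher went from 313 to 261 of 335. The members that rested on that library included CA1, CA2, TGG1, TGG2, AT1G13609, AT3G05727, AT3G05730, AT5G48490 and AT2G30766. None of these 9 passed limma. Of the 43 listed lower, 33 were 2-fold below Col with all libraries and 38 without replicate 2, against 416 and 423 of the 467 genes listed lower.

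For members of the MYB2 tables, the authors' deposited tables also give the log2 of LBD29-OE over Col, called or not. Of the 51 members listed higher in MYB2-SRDX, 48 had such a value, with a median of -0.64 and a range from -4.33 to 3.88. The 45 members listed lower in MYB2-OE had a median of -0.65. The 24 with a value among those listed higher in MYB2-OE had a median of 0.16, and the 20 listed lower in MYB2-SRDX had a median of -0.05. These values rest on the same Col libraries as the MYB2 comparisons, so they are given side by side only.

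Of a list of 61 textbook genes of immunity, put together with earlier results of these data known, 16 were in at least 1 table (26.2%) and 45 in none. Of all 27443 protein-coding genes of the annotation, 2408 were in a table (8.77%). In LBD29-OE 2 were listed higher (TGG1, TGG2) and 8 lower (PROPEP2, PROPEP3, FMO1, ALD1, NDR1, PEN3, CYP81F2, MLO6). In MYB2-OE 3 were higher (AT5G52810, AT4G10500 and PR4) and 4 lower (FMO1, LCR69, CYP81F2, TGG1). In MYB2-SRDX 5 were higher (FRK1, PBS3, FMO1, ALD1, CYP81F2) and 1 lower (AT5G52810). By class, the list's 15 pattern receptor and early signalling genes had 3 listed in any line, its 6 NLR and partner genes had 0, and its 15 pathogenesis-related and antimicrobial genes had 2. Of its 17 salicylic acid and systemic resistance genes, PBS3, FMO1, ALD1, AT5G52810, AT4G10500 and NDR1 were listed. Of its 5 glucosinolate breakdown genes, PEN3, CYP81F2, TGG1 and TGG2 were, and of its 3 MLO genes, MLO6. Absence from a table does not separate a gene that did not move from one that was too low or missed the authors' limits.

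Low expression limits many entries. The higher group mean was under 1 FPKM in 30 of the 73 LBD29-OE members, 16 of the 70 in MYB2-OE and 20 of the 71 in MYB2-SRDX. It reached 10 FPKM in 17, 34 and 26. Groups did not overlap in 60 of 73 members in LBD29-OE, against 85.2% of all genes of the table, in 66 of 70 in MYB2-OE, against 91.7%, and in 47 of 71 in MYB2-SRDX, against 74.8%. By direction, this held in LBD29-OE for 20 of 30 members listed higher, against 79.1% of all listed higher, and for 40 of 43 listed lower, against 89.5%. In MYB2-OE it held for 25 of 25 listed higher, against 93.7%, and for 41 of 45 listed lower, against 89.4%. In MYB2-SRDX it held for 28 of 51 listed higher, against 62.4%, and for 19 of 20 listed lower, against 88.8%. By annotation, 37 members overlap another gene. For EMB1290, RPP8, CA1, UGT73B5, AT4G13190, AT5G65600 and AT5G52810 the other gene lies on the same strand, so reads may be split between them.

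The 250 bases before each gene start were searched for the W-box core TTGAC, the motif that WRKY transcription factors bind, and for TAACTG, a site known to bind MYB2, on both strands. The gene start is that of the RefSeq annotation on TAIR10.1, matched by locus tag for all 161 members. The W-box core was in 56.5% of member promoters (91 of 161), against 44.9% of all 27443 protein-coding promoters. At least 2 cores were in 27.3% of members, against 14.1% of all. The core was in 15 of the 30 members listed higher and 28 of the 43 listed lower in LBD29-OE, in 18 of 25 and 19 of 45 in MYB2-OE, and in 34 of 51 and 12 of 20 in MYB2-SRDX. Of the 51, those under 2-fold without library 1 of MYB2-SRDX held it in 23 of 32, and those still 2-fold in 11 of 19. At least 2 cores were in 14 of these 32 and 3 of these 19. The MYB2 site was in 6.21% of members and 8.12% of all promoters. It was in 3 of 30 members listed higher and 2 of 43 listed lower in LBD29-OE, in 2 of 25 and 4 of 45 in MYB2-OE, and in 1 of 51 and 2 of 20 in MYB2-SRDX. These are descriptions with no test, and a match of this length is not a known binding site. Several members that passed limma in a line hold 3 or 4 cores, among them CRK18, EMB1290, PROPEP2 and TIR, which are not shown. The 3 promoters below were picked from this set. Their genes passed limma as follows: AT4G16260 in all lines, PROPEP3 in LBD29-OE, where 1 library lay within the range of Col, and AT5G64120 (PRX71) in MYB2-OE. Each is written 5′ to 3′ on the strand of its gene, with the cores in capitals (TTGAC, or GTCAA where the core is on the other strand). They lie at chr4:9201644-9201893 (minus strand), chr5:25939312-25939561 (plus strand) and chr5:25661008-25661257 (minus strand) of TAIR10.1, and no other annotated gene lies in these windows.
AT4G16260: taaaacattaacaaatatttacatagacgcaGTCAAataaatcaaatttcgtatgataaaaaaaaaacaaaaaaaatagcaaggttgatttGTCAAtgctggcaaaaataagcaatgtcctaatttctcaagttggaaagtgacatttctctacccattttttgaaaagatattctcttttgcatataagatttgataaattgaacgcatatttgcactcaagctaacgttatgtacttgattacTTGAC
PROPEP3: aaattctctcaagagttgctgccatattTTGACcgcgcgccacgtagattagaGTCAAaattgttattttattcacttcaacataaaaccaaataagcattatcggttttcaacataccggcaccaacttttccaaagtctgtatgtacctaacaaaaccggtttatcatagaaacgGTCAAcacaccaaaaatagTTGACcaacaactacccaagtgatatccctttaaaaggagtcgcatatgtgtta
AT5G64120: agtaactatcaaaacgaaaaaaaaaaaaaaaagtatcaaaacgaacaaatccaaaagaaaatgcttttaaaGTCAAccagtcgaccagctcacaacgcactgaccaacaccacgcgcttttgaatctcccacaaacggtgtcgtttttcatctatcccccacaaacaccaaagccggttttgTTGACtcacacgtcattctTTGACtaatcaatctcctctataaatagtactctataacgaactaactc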

How the data were processed

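Root RNA of 4 genotypes, 3 libraries each, was isolated with an RNeasy kit and turned into random-primed cDNA libraries for Illumina sequencing, per the protocols in the labels. The authors deposited 3 tables of called genes, each holding FPKM per library, a log2 fold of line over Col, and a p-value and Q-value, per the file headers. The build was TAIR10, per the submitters' processing notes. The aligner was not given in the sources used here, and neither were the counter, strand handling or the test behind the calls. Depth per library is unknown, so no count test, interval or floor is given. Groups came from the genotype labels. The MYB2-SRDX columns do not match the titles, so its libraries are numbered only by the final digit of the column.

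limma 3.58.1 in R 4.3.3 was run per table on log2(FPKM + 1) with a mean-variance trend, Col against 1 line, with Benjamini-Hochberg adjustment over all genes of the table and a threshold of 0.05, after it had been tested on simulated data. Nothing in the labels says that the libraries came from separate cultures, so p-values cover the spread among these libraries alone, and that spread may be technical. Among the called genes, same-numbered Col and line libraries showed little shared deviation (r from -0.086 to 0.021 in LBD29-OE and from 0.011 to 0.019 in MYB2-OE). Col 1 and LBD29-OE 3, with different numbers, had r = 0.143. Values from called genes alone cannot show whether libraries of the same number were prepared together. The main test used no pairing.

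The members and lists were chosen with earlier results of these data known. Roles were assigned by hand from annotations, in place of a keyword rule that misplaced genes, after values had been seen. Genes were named by rule: the 6 largest rises and 6 largest falls with a symbol and at least 10 FPKM per line, also without MYB2-SRDX library 1, genes in all 3 tables, up to 8 opposite in the MYB2 lines, and up to 4 of the highest per role. Others were named to describe a family or library after their values were seen. Alternatives were a pseudocount of 0.1, a minimum of 1 FPKM, each library left out, a replicate block, a 2-fold limit and the authors' calls.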

Additional observations from a re-analysis of the deposited data

How the results depend on the processing

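Members that rose in LBD29-OE numbered 18, and 28 by a 2-fold limit on FPKM + 0.1 or 30 by the authors' calls. Those that fell numbered 39, and 25 with a minimum of 1 FPKM. In MYB2-SRDX 13 rose, and 47 by the 2-fold limit or 51 by the authors' calls. The fewest, 8, rose without Col replicate 2 and the most, 24, without library 1. With each library left out, 14 to 17 rose and 31 to 41 fell in LBD29-OE, 23 to 25 and 35 to 40 in MYB2-OE, and 8 to 24 and 15 to 19 in MYB2-SRDX. The median log2 ratio of mean FPKM + 1 moved from -0.35 to -0.96 (pseudocount 0.1) or -0.80 (minimum of 1 FPKM) in LBD29-OE, from -0.37 to -1.07 or -0.90 in MYB2-OE, and from 0.62 to 1.35 (pseudocount 0.1) in MYB2-SRDX. With a library left out it ranged from -0.41 to -0.31, from -0.44 to -0.34, and from 0.12 (without library 1) to 0.73. The sign reversed for CA1 in LBD29-OE without replicate 2 (-0.26, up to 1.75 without another library), and without library 1 of MYB2-SRDX for CA1 (-0.27, up to 0.73) and WAKL10 (-0.0035, up to 0.67). The cause was not tested beyond the libraries named. Over 94 named gene values and 658 alternatives, 600 kept direction and side of the threshold, 40 lost the call, 15 gained it and 3 reversed.

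With the replicate number as a block, 16 members rose and 32 fell in LBD29-OE and 23 rose and 37 fell in MYB2-OE. No paired analysis was possible for MYB2-SRDX because its columns carry no label number. Depth is unknown, so how far low FPKM values can be trusted is not known.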
